A study of Mus musculus with 86 samples.

Results

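The microRNAs described here come from a pair of mouse gene clusters that are active in embryonic stem cells. Mir291a, Mir293, Mir294 and Mir295 belong to the miR-290 cluster on chromosome 7. Mir302a, Mir302b, Mir302c, Mir302d and Mir367 form the miR-302 cluster on chromosome 3. Every interval within 50 kb of any of these 9 hairpins was taken from 8 peak lists of the transcription factors SOX2 and CTCF, whatever its height. This gave 114 of the 327957 intervals in the lists, 94 around the miR-290 cluster and 20 around the miR-302 cluster.

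The lists come from chromatin immunoprecipitation with sequencing (ChIP-seq) of mouse embryonic stem cells of strain 129S5/SvEvBrd, grown in serum with leukemia inhibitory factor on gelatin. Asynchronous cells were untreated. Mitotic cells were held with 100 ng/ml nocodazole, a drug that blocks the spindle, for 6 h and were then collected by shake-off. No genetic change is given in the labels for any group. Each factor had 2 libraries per condition, and each library has a list of its own. Whether the replicates are separate cultures is not labelled, and their spread may therefore be technical only. Cell identity and the purity of the mitotic fraction could not be checked against expression markers, because peak lists hold no expression values. A peak in a mass of cells does not tell fewer bound cells from weaker binding in each cell.

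MicroRNAs are short RNAs cut from hairpin precursors, and they lower the output of messenger RNAs that pair with their seed, the stretch near the 5′ end. Both clusters are known for high activity in pluripotent cells. Their main family shares a seed and is known to promote the rapid passage from G1 to S phase that is typical of embryonic stem cells, in part by repressing inhibitors of the cell cycle. SOX2, a DNA-binding partner of OCT4, is part of the network that keeps these cells pluripotent, and CTCF is a zinc finger protein found at chromatin loop anchors and insulators.

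The mature sequences show how the members are related across the chromosomes, and are given 5′ to 3′ from RefSeq (GRCm38.p6) with the seed, bases 2 to 8, in capitals. The table held 17 mature arms of the 9 members. It had no entry for miR-302a-3p, so the seed of that arm was not read and the counts leave it out. Of the 1738 mature sequences in the table, 5 had the seed AAGUGCU. All 5 were 3p arms of members, 3 from chromosome 7 and 2 from chromosome 3.
miR-291a-3p: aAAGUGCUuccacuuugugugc
miR-294-3p: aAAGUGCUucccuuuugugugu
miR-295-3p: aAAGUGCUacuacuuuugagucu
miR-302b-3p: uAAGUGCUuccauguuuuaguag
miR-302d-3p: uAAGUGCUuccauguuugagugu

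The 3p arms of Mir302c, Mir293 and Mir367 carried other seeds. That of miR-302c-3p reads AGUGCUU, the shared seed moved by 1 base. The seed of miR-293-3p was found in no other mature sequence of the table. The seed of miR-367-3p stood in 7 mature sequences of the table, among them miR-25-3p, miR-32-5p, miR-363-3p, miR-92a-3p and miR-92b-3p.
miR-302c-3p: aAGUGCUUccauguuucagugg
miR-293-3p: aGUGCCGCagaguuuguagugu
miR-367-3p: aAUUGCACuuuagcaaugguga

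The 5p arms differed more between the clusters. Those of Mir302b, Mir302c and Mir302d shared the seed CUUUAAC, which no other mature sequence of the table had, and that of Mir302a differed from it. The 4 chromosome 7 members had 4 different 5p seeds, of which miR-291a-5p, miR-293-5p and miR-294-5p shared theirs with other hairpins of the same cluster (Mir291b, Mir290a and Mir292, and Mir292b). The 5p arms of Mir302b, Mir302a and Mir293 are shown as examples.
miR-302b-5p: aCUUUAACaugggaaugcuuucu
miR-302a-5p: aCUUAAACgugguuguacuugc
miR-293-5p: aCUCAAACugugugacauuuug

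On the build mm10 (GRCm38) all 9 hairpins lie on the plus strand. The chromosome 3 hairpins run from Mir302b (3:127545228-127545301) through Mir302c (3:127545363-127545430), Mir302a (3:127545496-127545564) and Mir302d (3:127545624-127545689) to Mir367 (3:127545733-127545807), a span of 580 bp. They lie within the long noncoding RNA gene Gm51018 (3:127545089-127546903, plus strand) and within the bounds of Larp7 (3:127536714-127553349, minus strand), which encodes a protein of the 7SK ribonucleoprotein. The chromosome 7 members run from Mir291a (7:3218919-3219000) through Mir293 (7:3220343-3220422) and Mir294 (7:3220641-3220724) to Mir295 (7:3220773-3220841), a span of 1923 bp. They lie within the long noncoding RNA gene D7Ertd143e (7:3218784-3221015, plus strand) and within the bounds of Nlrp12 (7:3218643-3249771, minus strand), a gene of innate immunity. The gene table used gives gene bounds but not exons, so exonic and intronic positions are not stated. The windows of 50 kb on each side measured 101 kb for miR-302 and 102 kb for miR-290.

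Whole lists ranged from 408 peaks (mitotic SOX2, replicate 2) to 90266 peaks (asynchronous SOX2, replicate 1). Coverage, the number of fragments over a peak's summit, was worked out from the deposited fold enrichment and p-value. The background coverage over the genome for replicates 1 and 2 of SOX2 was 5.44 and 3.5 when asynchronous and 5.47 and 2.92 when mitotic, and that of CTCF was 6.51 and 7.32 against 7.56 and 7.81. At that background the lowest coverage that would be called for SOX2 was 14 and 11 fragments in asynchronous lists and 17 and 14 in mitotic lists, and for CTCF 16 and 17 against 19 and 20. Fold enrichment here is the authors' ratio of summit coverage to local background, and it is used only to rank and describe peaks within a list.

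SOX2 was called on both clusters in asynchronous cells, and in mitotic cells a single SOX2 interval was listed in either window. Around miR-290 the asynchronous lists held 20 and 23 SOX2 intervals, and the mitotic lists held 1 and 0. Around miR-302 the asynchronous lists held 6 and 2, and the mitotic lists held none. Over both clusters the mean was 25.5 ± 0.707 intervals (SD, n = 2) in asynchronous and 0.5 ± 0.707 (SD, n = 2) in mitotic cells. The groups did not overlap, but with 2 libraries against 2 the two-sided exact permutation test gives p = 0.33, the smallest value it allows. The whole SOX2 lists were shorter too, with 90266 and 63504 peaks when asynchronous and 1976 and 408 when mitotic. The intervals of both clusters were 0.0288% and 0.0394% of the asynchronous lists and 0.0506% and 0% of the mitotic lists. The lower number is therefore not particular to these clusters.

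Fewer CTCF intervals were listed in mitotic than in asynchronous cells around both clusters, and the mitotic ones all lay around miR-290. The asynchronous CTCF lists held 22 and 20 intervals around miR-290, and the mitotic lists held 5 and 3. Around miR-302 the asynchronous lists held 5 and 7, and the mitotic lists held 0 and 0. Over both clusters the means were 27 ± 0 (SD, n = 2) and 4.0 ± 1.41 (SD, n = 2), again with no overlap and with the exact permutation p of 0.33, the smallest possible. The whole CTCF lists were shorter too, with 68328 and 67995 peaks when asynchronous and 20142 and 15338 when mitotic. The intervals of both clusters were 0.0395% and 0.0397% of the asynchronous lists and 0.0248% and 0.0196% of the mitotic lists.

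**Figure D1:**
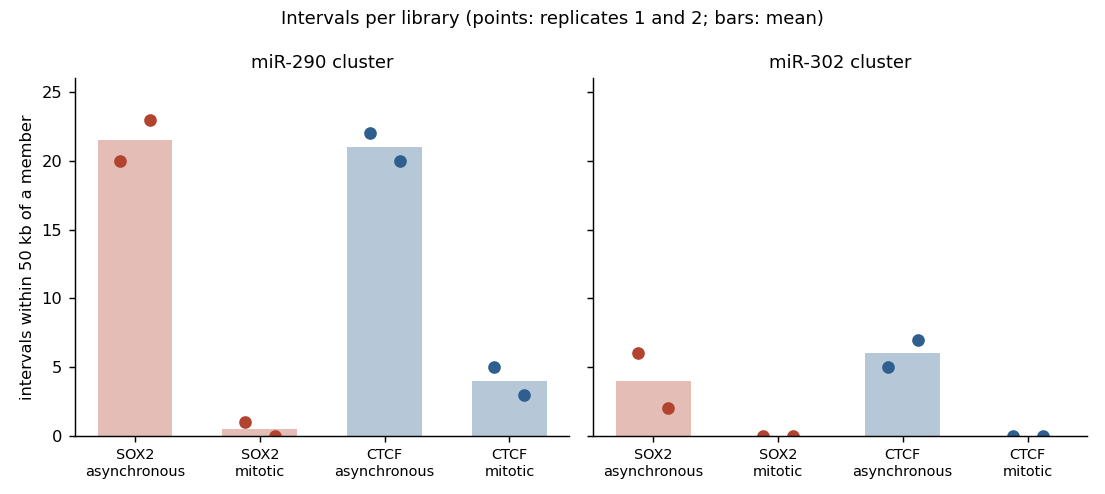
Number of intervals within 50 kb of a member (vertical axis) for each factor and condition, around miR-290 (left) and miR-302 (right); points are replicates 1 and 2 and bars are their mean. Asynchronous SOX2 gave 20 and 23 intervals around miR-290 against 1 and 0 in mitotic cells, and no mitotic library had an interval around miR-302.

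Numbers of intervals depend on how a list cuts a broad signal, so the bases covered are given too. SOX2 intervals covered 25.0% of the miR-290 window in asynchronous replicate 1 and 18.4% in replicate 2, although replicate 2 listed more intervals. In that window 5 regions that were 1 interval in replicate 1 were listed as 2 in replicate 2, and the region over the hairpins as 4. CTCF intervals covered 12.3% and 12.6% of the same window. Around miR-302 CTCF covered 3.09% and 3.01%, and SOX2 covered 4112 bp in replicate 1 and 1953 bp in replicate 2.

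To compare replicates, the intervals of a factor that overlapped between asynchronous libraries were joined, and a joined region is called reproducible here when each of these libraries contributed to it. Of 26 merged SOX2 regions 17 were reproducible (65.4%, against 53.4% of all merged SOX2 regions), 15 of them around miR-290 and 2 around miR-302. Of 31 merged CTCF regions 20 were reproducible (64.5%, against 76.4% of all merged CTCF regions), 16 and 4 by cluster. The SOX2 intervals of 1 library alone were all from replicate 1, 5 with folds of 2.6 to 5.47 around miR-290 and 4 with folds of 2.22 to 3.98 around miR-302. The 11 CTCF intervals of 1 library alone had folds of 2.06 to 3.46. By fold these CTCF intervals lay between the percentiles 0.481 and 22.9 of their lists, while the SOX2 intervals ranged from 1.29 to 71.7.

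Each region was placed by its strength, the percentile of its highest fold within each asynchronous list, averaged over both lists. A region takes the highest of its intervals, so the median over all regions of a factor is above 50. It was 61.3 for SOX2 and 57.7 for CTCF.

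The SOX2 region over the miR-302 hairpins (3:127543969-127545903) was the strongest of those near either cluster. Its fold was 27.1 in replicate 1 and 29.3 in replicate 2, with 300 and 168 fragments at the summit. Its strength percentile was 99.3, which placed it within the top 0.848% of the 51672 reproducible SOX2 regions. The summits of the replicates lay 4 bp apart, 431 and 427 bp before the start of Mir302b, the first hairpin. In replicate 1 the interval covered all 5 hairpins. In replicate 2 it was shorter and covered Mir302b and Mir302c in full and 94.2% of Mir302a, and it ended 64 bp before Mir302d and 173 bp before Mir367.

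The only other reproducible SOX2 region of this cluster (3:127529924-127530783) had its summits 14.8 kb before Mir302b. It reached folds of 17.1 and 12.7, with 114 and 56 fragments and a strength percentile of 94.5. Both SOX2 regions of miR-302 were thus among the strongest 10% of all SOX2 regions, and the summits of both lay before Mir302b in the direction of transcription.

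**Figure D2:**
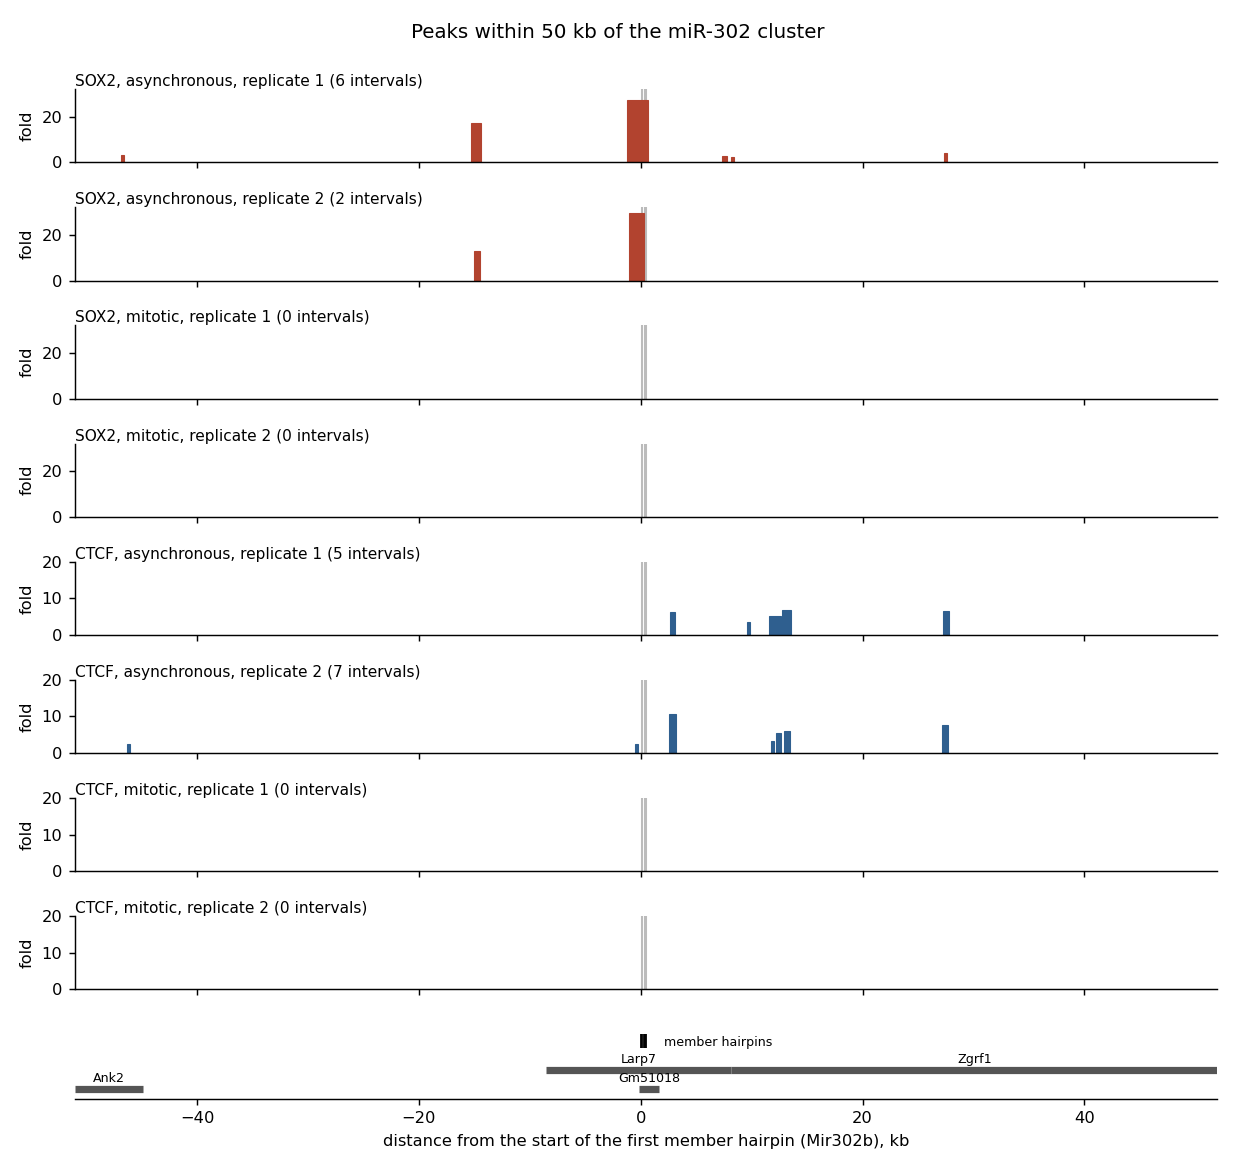
Peaks around miR-302 in each of the 8 libraries: the horizontal axis is the distance from the start of Mir302b in kb, bar height is the authors' fold enrichment (SOX2 axis to 32, CTCF axis to 20), grey lines mark the hairpins and the bottom row shows annotated genes. The tallest SOX2 bars, 27.1 and 29.3, stand at the hairpins in both asynchronous libraries, CTCF bars lie mainly after them, and the 4 mitotic rows are empty.

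SOX2 around miR-290 was arranged differently, as a run of strong regions before the hairpins with a weaker region over them. The region over the hairpins (7:3218620-3222719) covered all 4 members in both libraries. Its fold was 4.93 in replicate 1 and 4.14 in replicate 2, with 52 and 21 fragments and a strength percentile of 54.3, below the median of all SOX2 regions. Taken from the interval of highest fold, its summits lay 2079 bp apart in the 2 libraries, the widest gap among the SOX2 regions here. Replicate 2 listed this region as 4 intervals, and the one of highest fold measured only 237 bp. The replicate 2 interval with 29 fragments, over Mir293, Mir294 and Mir295, had its summit 2.76 kb after the start of Mir291a, against 2.6 kb in replicate 1. In replicate 2 the interval over Mir291a had a fold of 2.95 and 15 fragments, and the interval over Mir293, Mir294 and Mir295 a fold of 3.84 and 29 fragments.

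Before the hairpins, 5 SOX2 regions of the strongest 10% lay in a row of 25.4 kb (7:3192802-3218246), which holds no annotated gene in the table used. The farthest (7:3192802-3194311, summits 25.7 and 25.6 kb before Mir291a) had folds of 23.7 and 23.2, with 290 and 164 fragments. The next (7:3200478-3201918, 17.6 kb before in replicate 1) had folds of 17.5 and 15.6, with 183 and 110 fragments. These and the 3 that follow toward the hairpins had strength percentiles from 94.8 to 98.9.

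The strongest of the run by percentile, 98.9, was the middle one (7:3203652-3207745, 12.2 kb before Mir291a), with folds of 24.6 and 26 and 301 and 202 fragments. The region 6.66 kb before Mir291a (7:3210175-3214307) had folds of 26.1 and 21.9 and 258 and 147 fragments. The nearest (7:3216121-3218246) had its summits 1.24 and 1.26 kb before Mir291a, folds of 13.9 and 15.6, and 161 and 93 fragments. Neighbouring summits of the run were 5.38 to 8.07 kb apart, and for each of the 5 regions the summits of the replicates lay at most 49 bp apart. The 8 SOX2 regions in this stretch, the weak ones included, covered 59.2% of its bases and held 61.8% of the SOX2-covered bases of the window.

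Of the 15 reproducible SOX2 regions of this cluster, 10 had their replicate 1 summit before Mir291a and 5 after it. The strongest after it (7:3266948-3268819, 48.7 kb away) had folds of 12.8 and 8.14 and a strength percentile of 88.0, which left it outside the strongest 10%. The 9 other regions had folds of 2.52 to 5.39 in replicate 1. With strong and weak regions together, the median strength was 55.3 around miR-290 (range 5.93 to 98.9) and 57.7 over both clusters, against 61.3 for all SOX2 regions. In the strongest 10% were 7 of the 17 regions. The side of the median depended on the library: it was 40.9 (all 49.5) without asynchronous replicate 1 and 65.2 (all 50) without replicate 2.

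**Figure D3:**
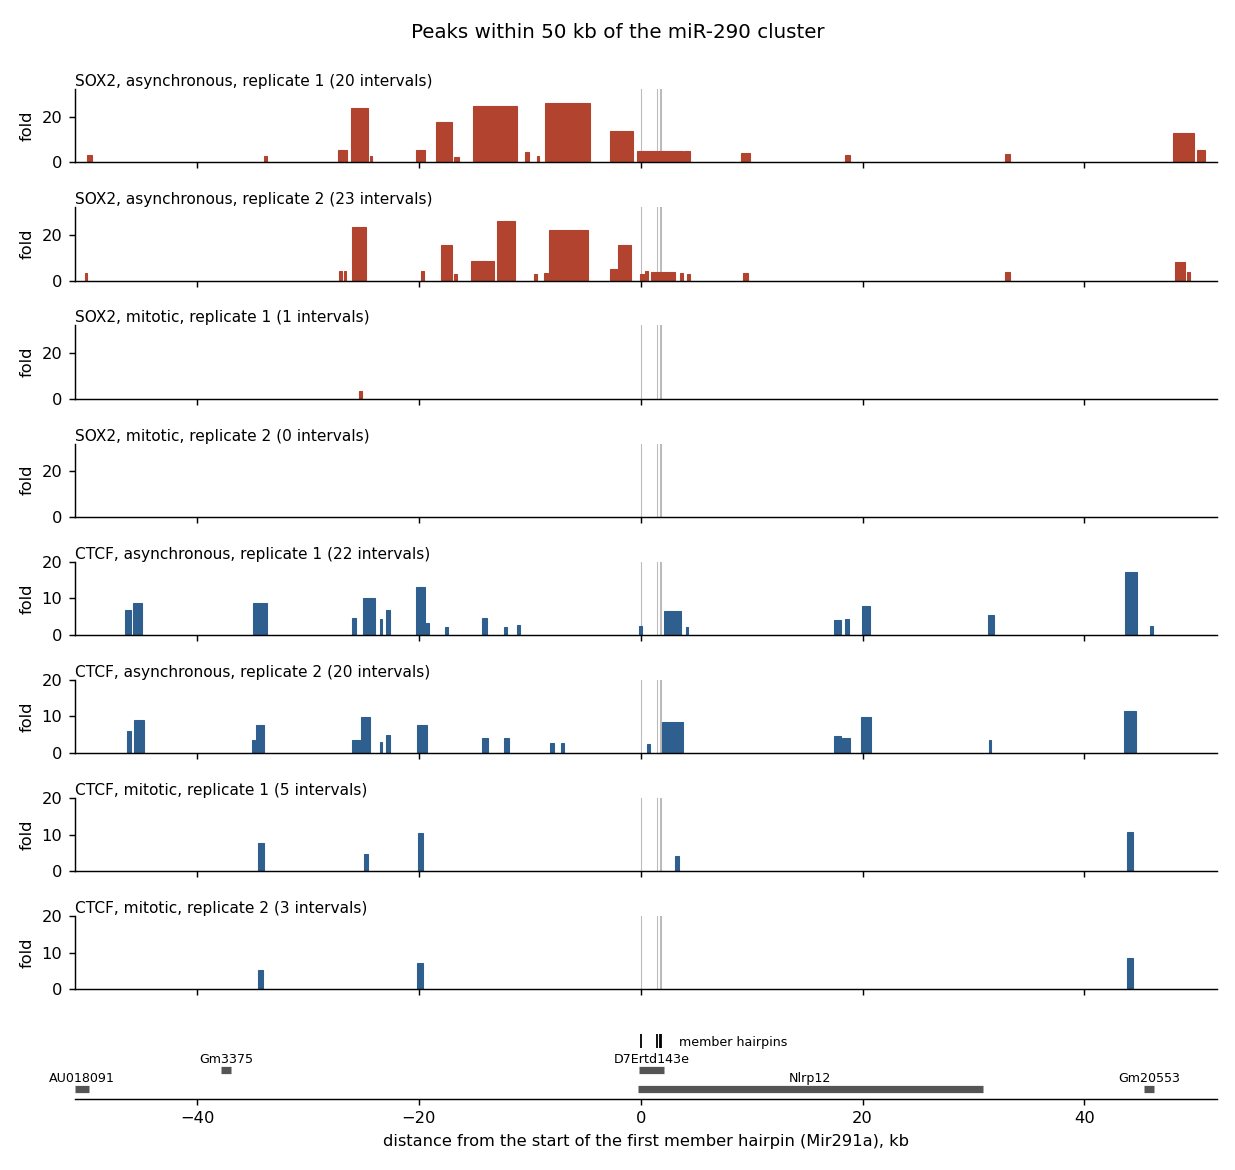
Peaks around miR-290 in each of the 8 libraries, drawn as distance from the start of Mir291a in kb against the authors' fold enrichment (SOX2 axis to 32, CTCF axis to 20), with hairpins as grey lines and annotated genes below. The 5 tall SOX2 regions lie from 25.7 to 1.24 kb before Mir291a in both asynchronous libraries, the mitotic SOX2 rows hold 1 bar of fold 3.53, and CTCF bars recur in the mitotic rows at 3 places.

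CTCF regions were more evenly spread and closer to the middle of their lists. The strength percentiles ran from 18.0 to 93.4 around miR-290 (median 54.9) and from 47.6 to 70.8 around miR-302 (median 59.8), and over both clusters the median was 57.2 against 57.7 for all CTCF regions. One CTCF region of 20 was among the strongest 10%. It lay 44.1 kb after Mir291a (7:3262468-3263706), with folds of 17.3 and 11.5, 141 and 167 fragments and a strength percentile of 93.4.

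Around miR-290 the CTCF regions next in strength lay before the hairpins and inside the run of SOX2 regions. The region 24.8 kb before Mir291a (7:3193696-3194931) had folds of 10.1 and 9.87 and 114 and 101 fragments. The region 19.8 kb before (7:3198664-3199816) had folds of 13.2 and 7.6 and 144 and 152 fragments. Farther out, a region 45.3 kb before (7:3173109-3174112) had folds of 8.79 and 9.13, and a region 20.4 kb after the start of Mir291a, within Nlrp12 (7:3238783-3239679), had folds of 7.79 and 9.98. The replicate summits of all 16 CTCF regions of this cluster lay at most 77 bp apart.

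The CTCF region nearest to the miR-290 hairpins (7:3220822-3222698) began near the end of the cluster, and its summits lay 3.17 and 3.19 kb after the start of Mir291a. Its folds were 6.51 and 8.56, with 112 and 109 fragments. In replicate 2 it covered 29.0% of Mir295, and in replicate 1 it began 210 bp after that hairpin. A weak CTCF interval over Mir291a, with a fold of 2.53 and 25 fragments, was listed in replicate 1 only.

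All 4 CTCF regions around miR-302 lay after the hairpins. The nearest and strongest (3:127547763-127548389, 2.87 kb after the start of Mir302b, within Larp7) had folds of 6.27 and 10.8 and 85 and 89 fragments. The other 3 lay within Zgrf1, a gene for a helicase-like protein. Of these the regions 3:127556834-127557904 and 3:127557977-127558762 were neighbours, with folds of 5.06 and 5.44 and of 6.78 and 5.95. The last (3:127572423-127573014) had folds of 6.41 and 7.72. No CTCF interval of either library covered a miR-302 hairpin.

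Reproducible SOX2 and CTCF regions overlapped around miR-290 and not around miR-302, where 2 overlaps involved an interval of 1 library alone: CTCF of replicate 2 in the SOX2 region over the hairpins, and SOX2 of replicate 1 in the CTCF region 27.5 kb after the start of Mir302b. Of the 17 SOX2 regions 4 (23.5%, 95% Wilson interval 9.56 to 47.3) overlapped a CTCF region by at least 1 bp, against 20.3% of all SOX2 regions, and 6 of the 20 CTCF regions (30%) overlapped SOX2, against 18.3% of all CTCF regions. Intervals of shares here cover counting error only. With summits within 100 bp asked for in place of overlap, 1 of the 17 SOX2 regions remained (5.88%, against 10.3% of all). With regions of either asynchronous library, 12 of 26 SOX2 regions overlapped CTCF (46.2%, against 25.0% of all). The region that met CTCF by its summits was the strong one 12.2 kb before Mir291a, where a CTCF region with folds of 2.14 and 4.02 (7:3206583-3207007) had its summits 18 and 10 bp from those of SOX2. At the first of the 5 strong SOX2 regions, 25.7 kb before Mir291a, the nearer CTCF summit was 230 and 301 bp away. Over the hairpins the summits were 573 and 2672 bp apart, the latter measured from the short replicate 2 SOX2 interval of highest fold.

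A region counts as called in mitosis when it shares at least 1 bp with an interval of a mitotic list. A change of coverage cannot be read from lists made separately, so only calls are compared. No SOX2 region near the clusters was called by both mitotic libraries, 0 of 17, which allows a share of up to 17.6% (3 counts of 17) and has a Wilson interval up to 18.4%. Among all SOX2 regions 0.675% were so called. In 1 or both mitotic libraries 1 of 17 was called (5.88%, 1.05 to 27), against 3.45% of all SOX2 regions. The mean share over the mitotic libraries was 2.94% ± 4.16 (SD, n = 2), from 5.88% and 0%, and the same mean for all regions was 2.06%. The count near the clusters was therefore close to the background, and nothing particular to these microRNAs can be read from it.

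The single mitotic SOX2 interval (7:3193541-3193779, 239 bp) came from replicate 1 and fell in the strong region 25.7 kb before Mir291a. Its fold was 3.53, its −log10 q was 4.14, and 24 fragments covered its summit, where at least 17 are needed at the background of that library. The summit lay 411 and 378 bp from the summits of the asynchronous replicates, in a SOX2 region that also overlapped CTCF. The other 6 SOX2 regions of the strongest 10%, among them the one over miR-302 with 300 and 168 asynchronous fragments, were called in neither mitotic library. Of all SOX2 regions in the strongest 10%, 10.1% were called in 1 or both and 3.89% in both mitotic libraries. These 7 regions had 114 to 301 asynchronous fragments in replicate 1 and 56 to 202 in replicate 2, and the lowest callable coverage was 17 and 14 fragments in mitotic replicates 1 and 2. The weaker SOX2 regions came down to 25 and 17 asynchronous fragments, closer to the lowest callable coverage.

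In mitotic cells the nearest SOX2 interval was 25.1 to 27 kb from the miR-290 members in replicate 1 and 903 to 905 kb in replicate 2. For the miR-302 members it was 86.8 to 87.3 kb in replicate 1 and 5251 to 5252 kb in replicate 2. No hairpin of either cluster was covered by an interval of a mitotic list, of SOX2 or of CTCF.

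CTCF was called in mitosis at 5 of its 20 regions, all of them around miR-290. Of the 20 regions 3 were called in both mitotic libraries (15.0%, 5.24 to 36), against 24.5% of all CTCF regions, and 5 in 1 or both (25.0%, 11.2 to 46.9), against 34.0%. The mean share over the mitotic libraries was 20% ± 7.07 (SD, n = 2), from 25.0% and 15.0%, and for all CTCF regions it was 29.2%. The intervals of both counts include the background. Around miR-302, 0 of 4 regions were called, and the Wilson interval reaches 49.0%.

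The 3 regions called in both mitotic libraries frame the hairpins at a distance. The one 34.3 kb before Mir291a (7:3183897-3185216; folds of 8.63 and 7.54) had 141 and 144 fragments in asynchronous cells and 65 and 56 at the mitotic summits. The one 19.8 kb before had 144 and 152 asynchronous and 89 and 63 mitotic fragments. The one 44.1 kb after had 141 and 167 asynchronous and 90 and 75 mitotic fragments, and it is the region in the strongest 10%, of which 80.3% were called in both and 90.4% in 1 or both mitotic libraries among all CTCF regions. In these 3 regions the mitotic summits lay 0 to 52 bp from the asynchronous ones.

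Mitotic replicate 1 alone also called the region 24.8 kb before Mir291a, with 40 fragments and a fold of 4.59, and the region next to Mir295, with 35 fragments and a fold of 4.21. Their mitotic summits lay 60 and 44 bp, and 13 and 33 bp, from the asynchronous ones. The 5 called regions had 112 to 144 fragments in asynchronous replicate 1 and 101 to 167 in replicate 2, and the 15 others had 31 to 120 and 24 to 109. Called regions were thus mostly the higher ones. The region within Nlrp12 with 120 and 109 fragments was not called, and those of miR-302, with 46 to 87 and 54 to 89 fragments, lay below the range of the called regions.

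**Figure D4:**
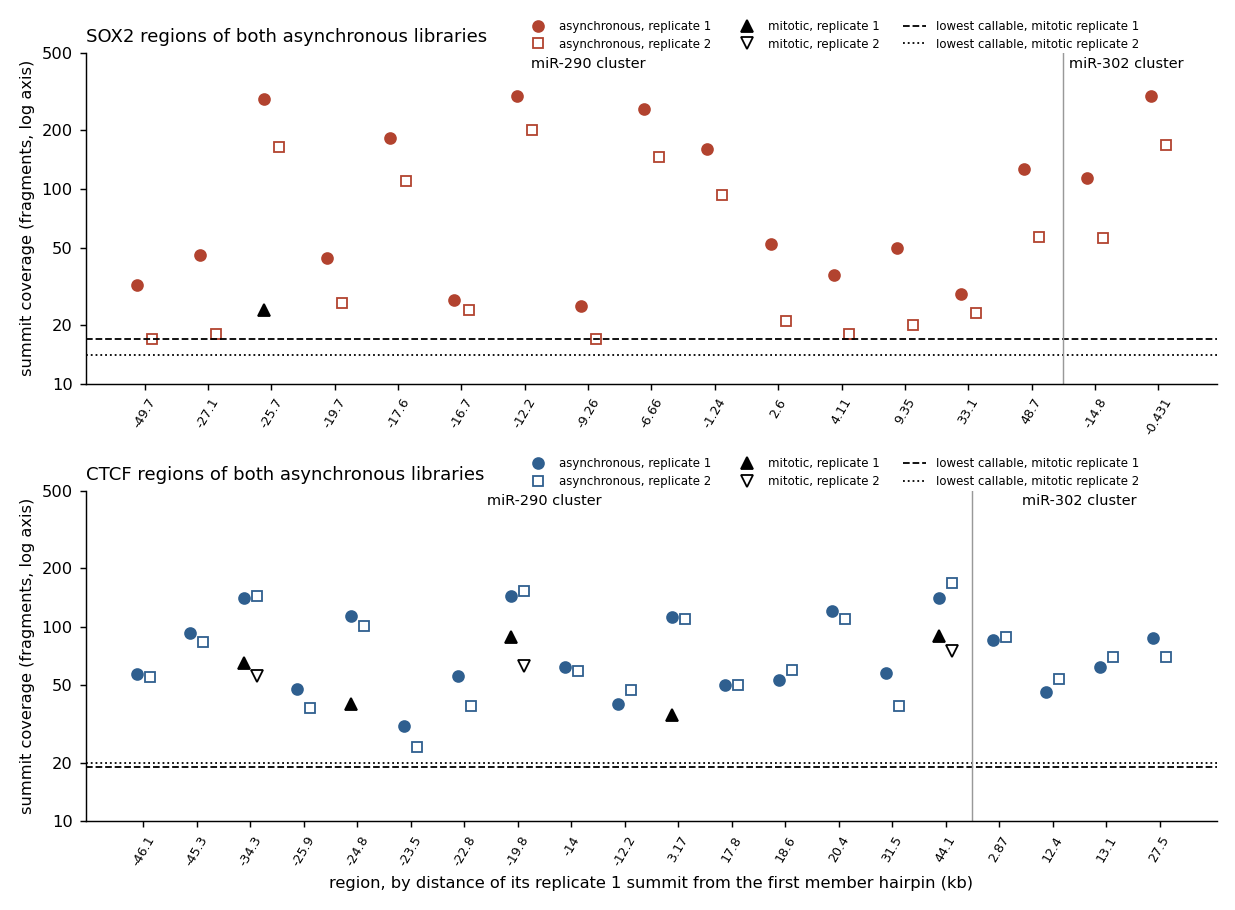
Fragments at the summit (vertical log axis) of each reproducible SOX2 region (top) and CTCF region (bottom), ordered by cluster and by distance of the replicate 1 summit from the first member in kb; filled and open symbols are replicates 1 and 2, triangles are mitotic libraries, and dashed and dotted lines are the lowest coverage callable at the background of mitotic replicates 1 and 2. One SOX2 region carries a triangle, at 24 fragments under asynchronous values of 290 and 164, and 5 CTCF regions of miR-290 carry triangles between 35 and 90.

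Around miR-302 the nearest SOX2 intervals outside the 50 kb limit lay 55.6 and 55.7 kb away with folds of 10.8 and 8.06, and the farthest inside lay 46.6 and 14.5 kb away with folds of 3.1 and 12.7. Around miR-290 SOX2 intervals with folds of 3.33 and 3.12 lay inside the limit, at 49.5 and 49.9 kb, and intervals with folds of 2.67 and 3.37 outside it, at 51.6 and 52.4 kb. For asynchronous CTCF at miR-290 the farthest inside, at 46.0 and 45.9 kb, had folds of 6.7 and 6.09, and the nearest outside, at 52.3 and 52.2 kb, folds of 4.13 and 4.33. At miR-302 the farthest CTCF intervals inside, at 26.7 and 46.0 kb, had folds of 6.41 and 2.47, and the nearest outside, at 62.3 and 62.4 kb, folds of 6.31 and 7.21. Mitotic CTCF had folds of 10.6 and 8.62 at 41.9 kb inside the miR-290 limit, and 3.7 and 3.18 at 79.4 and 89.5 kb outside it.

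The promoters of both noncoding host genes are shown because SOX2 reached them to different extents. Each covers the 300 bases around the annotated start, from RefSeq (GRCm38.p6), and capitals mark the matches to the motifs searched. The promoter of Gm51018 (3:127544839-127545138, plus strand) was covered by SOX2 intervals of both asynchronous libraries and by no mitotic interval. The SOX2 summits lay 292 and 288 bp before the start, outside the stretch shown. The stretch held 1 match to the SOX core ACAAAG, 94 bases before the start and thus not at the summits. The promoter of D7Ertd143e (7:3218534-3218833, plus strand) was reached by SOX2 in 1 asynchronous library, and the nearest strong SOX2 summit lay 1109 and 1130 bp before the start. It held no SOX core and 1 match, on the minus strand and 105 bases before the start, to AGGNGGC, a part of the CTCF motif. This stretch also contains the hairpins Mir290a (7:3218626-3218708) and Mir290b (7:3218638-3218695), and the match lies inside both. The annotated start of D7Ertd143e thus lies after these hairpins, so the stretch is not a promoter before the whole cluster. CTCF intervals touched each promoter in 1 asynchronous library and in no mitotic library.
Gm51018 promoter: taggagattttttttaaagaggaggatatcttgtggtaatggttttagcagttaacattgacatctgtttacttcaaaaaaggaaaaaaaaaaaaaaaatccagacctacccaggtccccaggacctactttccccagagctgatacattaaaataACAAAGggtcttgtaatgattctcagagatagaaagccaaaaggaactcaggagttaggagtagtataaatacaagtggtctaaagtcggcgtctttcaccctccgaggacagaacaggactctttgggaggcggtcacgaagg
D7Ertd143e promoter: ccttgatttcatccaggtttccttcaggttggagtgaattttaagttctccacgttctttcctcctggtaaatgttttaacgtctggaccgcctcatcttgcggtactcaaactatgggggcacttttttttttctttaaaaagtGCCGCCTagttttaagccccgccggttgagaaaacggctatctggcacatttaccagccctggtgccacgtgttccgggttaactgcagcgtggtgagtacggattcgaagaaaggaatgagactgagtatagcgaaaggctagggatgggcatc

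These matches are common. Both strands were searched for the SOX cores and for the octamer and CTCF parts, and none of these motifs contains another. Of 32851 promoters of the same length 18.7% held the core ACAAAG and 12.6% the core ACAATG, and 28.6% held either. The octamer part ATGCAAA stood in 4.63%, and the CTCF part AGGNGGC in 29.4%. A match describes the letters only, and the sequences under the peak summits were not analysed here.

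Among the microRNA loci of the annotation, miR-290 stood at the top for strong SOX2 regions. The 1228 annotated microRNA genes were joined into 943 loci where neighbours lay within 10 kb, and the regions within 50 kb of each locus were counted. The miR-290 locus had 5 SOX2 regions of the strongest 10%, and no other locus had more than 3. The next, with 3 each, were 12 loci such as Mir1195, Mir6927 and Mir6398, while 721 loci had none. The miR-302 locus had 2, a number reached by 45 loci (4.77%). This describes where the loci stand and is not a test.

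Counting all SOX2 regions, 9 loci (0.954%) had at least the 15 of miR-290, with Mir1983 highest at 22, and the median locus had 4. In bases covered by SOX2 regions, 24.4 kb, miR-290 was matched by 3 loci (0.318%) including itself, and the median was 2748 bp. The miR-302 locus had 2 SOX2 regions, fewer than the median. For CTCF, 15 loci (1.59%) had at least the 16 regions of miR-290, and miR-302 had 4 against a median of 5. A SOX2 region called in both mitotic libraries lay near 3.39% of the 943 loci, and a CTCF region so called near 62.1%. Neither cluster was among the former, and miR-290 was among the latter.

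**Figure D5:**
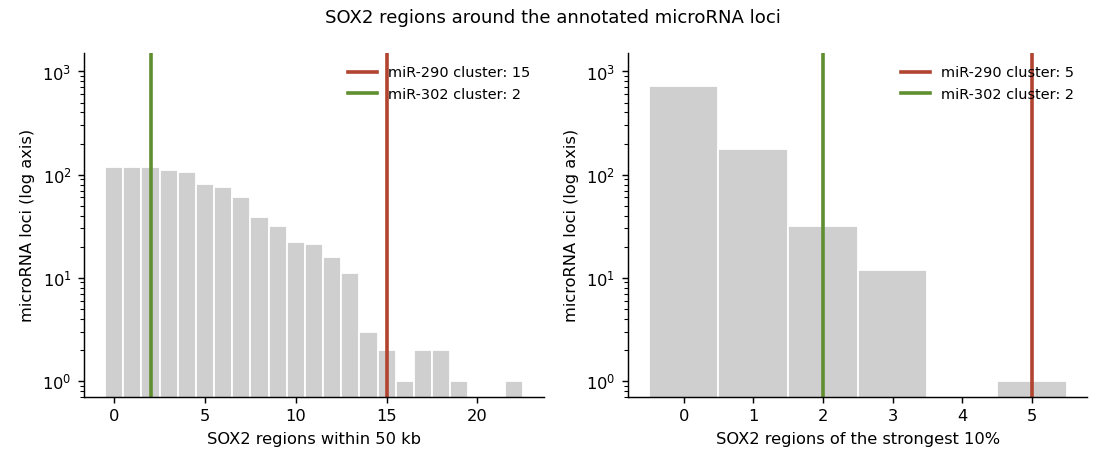
Number of microRNA loci (vertical log axis) by the number of SOX2 regions within 50 kb (left) and by the number of those in the strongest 10% (right), over 943 loci, with the clusters marked by vertical lines. The miR-290 locus has 15 regions and 5 strong ones, the highest of the right panel, and miR-302 has 2 regions, both strong.

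Other microRNA genes and genes of the pathway gave a frame for the mitotic calls. Of the 943 microRNA loci 21.1% had a SOX2 region called in any mitotic library and 3.39% in both, and of 21887 protein-coding genes 17.6% and 3.67%. For CTCF the shares were 69.5% and 62.1% of the loci, and 71.9% and 63.6% of the genes. The genes of a list can share regions, and the counts are descriptions without a test. The other 5 hairpins of the miR-290 cluster in the table (Mir290a, Mir290b, Mir291b, Mir292 and Mir292b) share its window and had 14 or 15 SOX2 regions, with 0 called in both mitotic libraries. Of 12 genes of the related miR-17 family clusters, 6 had a SOX2 region called in both. These are the 6 hairpins from Mir17 to Mir92-1 on chromosome 14, named after their values were seen. They share 1 SOX2 region, which was outside the strongest 10%. The Mir106b, Mir93 and Mir25 locus had 8 SOX2 regions with 1 called in a single mitotic library, and the Mir106a, Mir20b and Mir363 locus on chromosome X had 3 with 0 called.

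Of 11 let-7 genes, whose products accumulate as stem cells differentiate, 4 had a SOX2 region called in any mitotic library and 1, Mirlet7i, in both. For all 943 microRNA loci the shares were 21.1% and 3.39%. The units differ, because neighbouring genes were joined in the loci and genes of the lists were counted singly. Mirlet7b and Mirlet7c-2, both among the 4, lie in 1 such locus. Among 20 genes of a mixed list, microRNAs of differentiated tissues together with the Mir200 family, Mir296, Mir134 and Mir470, the numbers were 8 and 2. These 20 genes had a median of 5.5 SOX2 regions, against 4 for the loci, so more regions per gene could be called. The remaining names, of 23 asked for, were other spellings of the Mir124a genes already in the list. Mir10a, in a Hox cluster, had the most SOX2 regions at 17. Among 16 genes of microRNA processing and its control the numbers were 11 and 4, against 17.6% and 3.67% of all protein-coding genes. These 16 genes had a median of 6.5 SOX2 regions against 4 for protein-coding genes, so more regions per gene could be called. What this adds to the numbers was not tested. Trim71, a let-7 target, had 16 SOX2 regions with 0 called in both, and Lin28a, which blocks let-7 processing, had 10 with 1 called in both. The others with 1 were the Argonaute genes Ago1, Ago3 and Ago4, neighbours on chromosome 4 that can share regions.

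Of 12 reported targets of the shared seed family, 2 had a SOX2 region called in a mitotic library, and 0 in both, against 17.6% and 3.67% of protein-coding genes. These 2 were Lefty1 and Lefty2, neighbouring genes for inhibitors of Nodal signalling, each with 2 such regions and each with 3 SOX2 regions of the strongest 10%. Their 50 kb windows overlap, so the same regions can be counted for both genes. The cell cycle inhibitor gene Cdkn1a had 7 SOX2 regions with 0 called in mitosis. All 12 targets had a CTCF region called in any mitotic library and 11 had one called in both, against 71.9% and 63.6% of protein-coding genes. The targets had medians of 7 SOX2 and 8 CTCF regions, against 4 and 6 for protein-coding genes, so more regions per gene could be called.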

How the data were processed

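Peak lists of 8 ChIP-seq libraries, SOX2 and CTCF in asynchronous and mitotic mouse embryonic stem cells, were used, of 86 samples listed, and the histone mark and input data are not analysed here. The submitters' processing notes name MACS2 2.1.1.20160309, BWA 0.7.17, SAMtools, CASAVA 1.4 and the build mm10, without options or control libraries, so these are not given in the sources used. Each library has its own list as deposited by the authors, in narrowPeak format. Its fold enrichment is the authors' ratio at the summit, and the authors' −log10 of p and of q describe that same point. The deposited score is a scaled copy of the −log10 q and was not used. The lowest −log10 q of a list was 1.31 to 1.48.

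Summit coverage k and local background were solved from fold and −log10 p under the Poisson model of MACS2. Coverage was a whole number, within 0.01, for 99.9% to 100% of the peaks solved, in a sample of 408 to 2192 peaks per list. Intervals within 50 kb of a hairpin's bounds were taken. Overlap means at least 1 bp. Confidence intervals are Wilson intervals at 95%, and an exact permutation test, two-sided, compared numbers of intervals. Gene bounds came from a RefSeq table (GRCm38.p6, which is mm10) of 49943 genes. All 9 members matched, and RefSeq gave 17 of their mature arms, without miR-302a-3p. Python 3.11.15, NumPy 2.4.6, pandas 2.3.3, SciPy 1.17.1, Matplotlib 3.10.9 and, for a check of overlaps on simulated data, bedtools 2.31.1 were used.

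The members, the gene lists and the tests were chosen with earlier results of these data known. Named with coordinates were, per cluster and factor, the 5 strongest reproducible regions, regions with a mitotic peak, the nearest region and the nearest one before the first hairpin, and, per list, up to 6 genes with most regions. Alternatives were distances of 10 and 100 kb, a fold of at least 5, a −log10 q of at least 5, an overlap of 50%, summits within 100 bp, regions present in 1 asynchronous library or both, omission of each library in turn, and values within replicate numbers.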

Additional observations from a re-analysis of the deposited data

How the results depend on the processing

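Of 60 alternative values computed for 7 results, 54 counted as unchanged, under wide limits. Numbers of intervals counted as unchanged when fewer were mitotic, because the permutation test cannot give a small p here. For shares called and for strength the limit was the SD of 2 libraries. Leaving out a mitotic library could therefore not move a share called beyond it. For the overlap with CTCF the limit was the Wilson interval. The count of 54 was thus partly fixed in advance and does not measure robustness. The CTCF share called in mitosis was 12.9% with regions of either asynchronous library (all CTCF regions 22.5%), against 20% (all 29.2%). The median CTCF strength was 68.2 within 10 kb and 58.7 within 100 kb, and 42.6 to 44.7 without one asynchronous library (all CTCF regions 50.1 and 50), against 57.2 (all 57.7). The share of SOX2 regions that meet CTCF was 5.88% with summits within 100 bp (all SOX2 regions 10.3%), 12.5% with a fold of at least 5 (all 8.35%), 14.3% within 10 kb and 46.2% with regions of either asynchronous library (all 25.0%), against 23.5% (all 20.3%). The cause was not tested.

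The only mitotic SOX2 interval rests on mitotic replicate 1. The share called was 0% without that library (all SOX2 regions 0.755%) and 5.88% without replicate 2 (all 3.37%). The interval was also lost with a fold or a −log10 q of at least 5, within 10 kb and with summits within 100 bp. Under those settings 1.29% to 2.06% of all SOX2 regions were called. Labels give the groups the same replicate numbers but not that they mark a shared culture. Compared within replicate numbers, as a replicate block, mitotic SOX2 intervals were 1.92% and CTCF intervals 14.8% of the asynchronous ones. The shares called were then 1.92% for SOX2 (all SOX2 regions 1.3%) and 14.8% for CTCF (all CTCF regions 25.2%). With 2 libraries a group no p below 0.33 is possible. At the background over the genome, a region can be missed in mitotic lists below 14 to 20 fragments. Where the local background is higher, more fragments are needed. Peak lists do not measure regions that were not called.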
